A study of Mus musculus with 6 samples.

Results

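The endothelin system of the mouse kidney was followed through 7 genes: the ligands Edn1, Edn2 and Edn3, the receptors Ednra and Ednrb, and the converting enzymes Ece1 and Ece2. They were taken by name, as all probes that the array files label with one of these 7 gene names, and they are 7 of 27343 named genes on the array. RNA of whole kidney was hybridised to 6 single-colour Agilent mouse arrays. Mice deficient in Gpr97, the adhesion receptor gene now called Adgrg3, gave 1 array after ischaemia/reperfusion injury and 1 after sham surgery. Wild-type mice gave 2 arrays after ischaemia/reperfusion injury and 2 after sham surgery. In this injury the blood supply of the kidney is stopped and then restored. All animals are labelled male. The sources used here do not give age, strain, the length of ischaemia, the time of collection or the part of Adgrg3 that was removed. Separate animals for the arrays of a group are not stated either, so each p-value is set against a spread that may be in part technical.

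Endothelins are short peptides that are made as longer precursors, trimmed by furin-like convertases to inactive big endothelins, and cut to the active form by endothelin converting enzymes. Endothelin 1, encoded by Edn1, is a strong constrictor of vessels and is made by endothelium and by cells of the collecting duct. The receptor encoded by Ednra sits mainly on vascular smooth muscle and mesangial cells and drives contraction. The receptor encoded by Ednrb sits on endothelium, where it releases nitric oxide and clears endothelin from the blood, and on collecting duct cells, where it lowers sodium uptake.

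The 7 genes are represented by 15 probes of 60 bases, 4 for Ednra, 3 labelled Ece2, 2 each for Edn3, Ednrb and Ece1, and 1 each for Edn1 and Edn2. The probe defines what was measured, so the first 30 bases of the probe that stands for each gene are shown, as read from the array files (5′ to 3′), with both Ednrb probes because the result for this receptor appears on both, and with a probe whose name and accession disagree.
Edn1: cagtaaaaatatgttcccgtatgtattgta
Edn2: aggacacaattacctaagccacacctggag
Edn3: cactcaggagataagtcaaatgcataataa
Ednra: ggccctggtaactctactgggcattttccc
Ednrb, brighter probe: agcaataaatacagctcgtcttgaaggcaa
Ednrb, dimmer probe: aaggacgccccagatcttcaattttaagtt
Ece1: ttttttgtattattgtgttttgtgctactg
Ece2: caatggactccagaacctgggggaaaacat
Eef1akmt4, labelled Ece2 in the files: aaatccagaggtcttgtgcataaaacagtg

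In mm9 coordinates of the files, the Edn1 probe lies at chr13:42403101-42403160 on the plus strand and the Edn2 probe at chr4:119839682-119839741 on the plus strand. The Edn3 probe lies at chr2:174608971-174609030 on the plus strand and the Ednra probe at chr8:80186985-80187044 on the minus strand. The 2 Ednrb probes lie at chr14:104216247-104216306 and chr14:104214484-104214543 on the minus strand, and the Ece1 probe at chr4:137521065-137521124 on the plus strand. The Ece2 probe lies at chr16:20644268-20644327. The probe labelled Ece2 at chr16:20618852-20618911 carries an accession that RefSeq gives to Eef1akmt4, the neighbouring lysine methyltransferase gene, and it is reported under that name. An exon or UTR for each probe was not assigned here, because no annotation of this build was used.

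Signals are log2 values of the processed signal relative to the 75th percentile of the same array, so 0 marks a signal at that percentile. Each gene was read from its probe with the highest mean, and no level is set against that of another probe. Of the 15 probes 7 were well above background on all 6 arrays, 5 on some arrays and 3 on none. By gene, 4 of 7 were well above background on all 6 arrays (Edn1, Ednra, Ednrb and Ece1), Edn2 and Edn3 on 5 arrays each, and Ece2 on 2. All 7 passed the filter of at least 2 arrays and were tested among 19611 genes.

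Several features of the arrays bear on every value. The Gpr97-deficient injured array, wild-type injured array 1, the Gpr97-deficient sham array and wild-type sham array 2 share slide 2, and wild-type injured array 2 and wild-type sham array 1 share slide 1. Genotype can therefore be compared within slide 2 only. On wild-type injured array 1 the brightest probe of Xist, an RNA of female cells, stood at 4.10, and elsewhere at -5.38 or lower. Of 4 Y-linked genes 0 were well above background on that array and 4 on each other array. This goes against its label of a male mouse, so results are given with and without it. It is the only wild-type injured array of slide 2, so no genotype comparison after injury is both within a slide and free of this mismatch. Adgrg3 stood at -5.71 on the Gpr97-deficient injured array and at 1.1 and 1.25 on the wild-type injured arrays, and after sham surgery at -5.34 in the Gpr97-deficient kidney, against 0.24 and 0.05 in wild type. All 10 tubular injury genes were higher on each injured array of a within-slide pair than on its sham array, with a median log2 change of 3.26. All 10 kidney defining markers, such as Umod and Slc34a1, were well above background on all 6 arrays. No spot was saturated (0 on each array), and 62.9% to 71.0% of the probes of an array were well above background. The number of arrays limits the precision of all values.

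**Figure D1:**
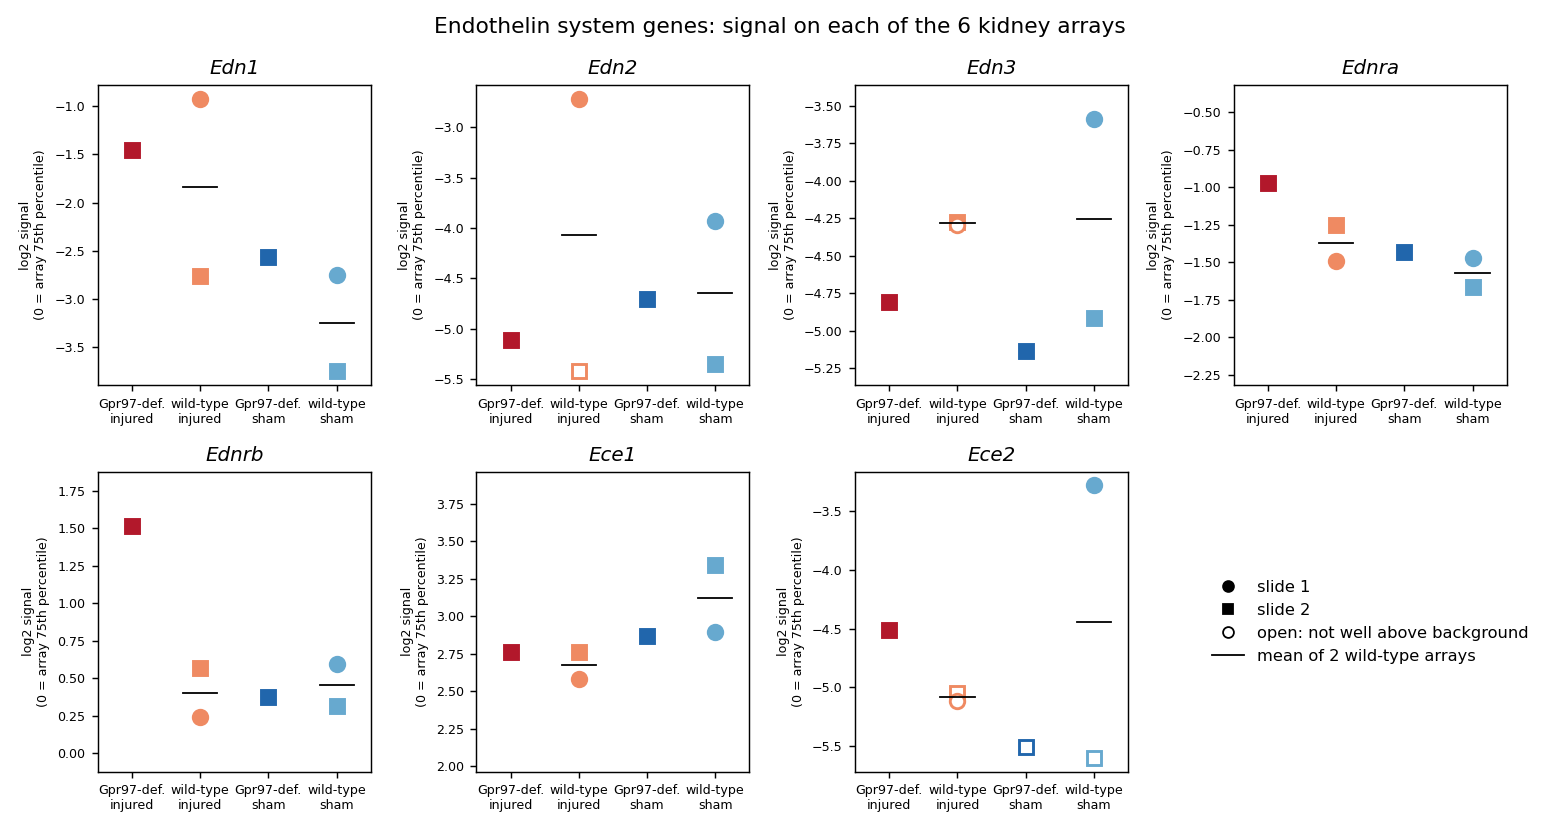
Log2 signal of the 7 endothelin system genes on each of the 6 arrays, with 1 panel per gene, injured groups left of sham groups and 0 at the 75th percentile of the array. Filled points were well above background, open points were not, circles are slide 1, squares are slide 2 and lines are means of the 2 wild-type arrays; Ednrb is highest on the Gpr97-deficient injured array (1.51), and Ece1 is lower on all 3 injured arrays (2.58 to 2.76) than on all 3 sham arrays (2.87 to 3.34).

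No member passed a Benjamini-Hochberg adjusted p of 0.05 in limma in any of 6 comparisons, and no gene of the array did. For injury over both genotypes, injured minus sham in an additive model of 3 against 3 arrays, 0 of 7 members were called, against 0% of all genes. At an unadjusted p under 0.05 the counts were 0 of 7 members and 12.3% of all genes. For injury in wild-type mice, 2 against 2 arrays, 0 members passed either threshold, against 0% of all genes by the adjusted p and 6.37% by the unadjusted p. For injury in Gpr97-deficient mice, 1 against 1 array with the spread taken from the wild-type arrays, 0 members passed the adjusted threshold, against 0% of all genes. By the unadjusted p 1 member, Ednrb, passed in that comparison, against 2.73% of all genes. For Gpr97 deficiency over both surgeries 0 members passed either threshold, against 0% and 3.22% of all genes. For Gpr97 deficiency in injured kidney, 1 against 2 arrays, 0 members passed the adjusted threshold, against 0% of all genes, and 1 member, again Ednrb, passed the unadjusted one, against 1.43% of all genes. Both tests of Ednrb share the Gpr97-deficient injured array. For the difference of the injury changes between genotypes 0 members passed either threshold, against 0% and 1.48% of all genes. The median log2 change of the 7 members was 0.25 for injury over both genotypes, against -0.04 for all genes, with 5 members higher.

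Edn1, the gene of endothelin 1, was the ligand with the largest injury difference and the only member that was higher in the injured kidney of all 3 within-slide pairs. Its signal was -1.45 on the Gpr97-deficient injured array and -2.76 and -0.92 on wild-type injured arrays 1 and 2, against -2.57 on the Gpr97-deficient sham array and -2.75 and -3.75 on wild-type sham arrays 1 and 2. The injured and sham arrays overlapped, because the Xist-bearing array, wild-type injured array 1, stood below the Gpr97-deficient sham array and just below wild-type sham array 1. That array was still above the wild-type sham array of its own slide.

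Within slides, Edn1 was 1.12 higher in the injured than in the sham kidney of the Gpr97-deficient pair, 0.99 higher in the wild-type pair of slide 2 and 1.83 higher in the wild-type pair of slide 1. A difference in the same direction in all 3 pairs, injured higher, was seen for 19.6% of all genes and for 1 of 7 members. At least 2-fold higher in all 3 pairs were 1.19% of all genes and 0 members, and Edn1 missed this by the wild-type pair of slide 2. Over both genotypes Edn1 averaged -1.71 ± 0.95 in injured kidneys and -3.03 ± 0.64 in sham kidneys (SD, n = 3 each). The log2 change was 1.31 (SE 0.56, 95% interval -0.12 to 2.75), with a limma adjusted p of 0.439 and an unadjusted p of 0.0657. Of all tested genes 2.14% had a higher change in this comparison. Without wild-type injured array 1 the change was 1.81 (SE 0.47, limma adjusted p 0.220), and without wild-type injured array 2 it was 0.76 (adjusted p 0.673). With slide as a block the change was again 1.31 with a smaller error (SE 0.22, unadjusted p 0.00372, limma adjusted p 0.147).

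By genotype, Edn1 was also higher in the Gpr97-deficient kidneys of slide 2, by 1.31 between the injured arrays and by 1.18 between the sham arrays, 1 array against 1 each time. Against both wild-type injured arrays, the Gpr97-deficient injured kidney differed by 0.39 (SE 0.93, limma adjusted p 1.0). With slide as a block that value was 1.1 (SE 0.42, unadjusted p 0.0688, adjusted p 1.0), and with normexp background correction it was -0.091. Without wild-type injured array 1 it was -0.53, which sets an array of slide 2 against one of slide 1 and so mixes genotype with slide. Over both surgeries the genotype change was 0.54 (SE 0.59, limma adjusted p 0.994), and with slide as a block it was 1.25 (SE 0.27, unadjusted p 0.00944, adjusted p 0.75). The injury change differed between genotypes by -0.29 (SE 1.32, 95% interval -3.92 to 3.33), an interval too wide to show whether they differ. By group mean, Edn1 was highest in the Gpr97-deficient injured kidney (-1.45), followed by wild-type injured (-1.84 ± 1.3), Gpr97-deficient sham (-2.57) and wild-type sham kidneys (-3.25 ± 0.71; SD, n = 2 for each wild-type group). Each neighbouring pair in this order lay closer together than the SD of its wild-type group.

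Edn2, the ligand gene whose product acts on both receptors much as endothelin 1 does, was dim. It stood at -5.11 on the Gpr97-deficient injured array and at -5.42 and -2.71 on the wild-type injured arrays, against -4.70 on the Gpr97-deficient sham array and -3.93 and -5.35 on the wild-type sham arrays. On wild-type injured array 1 it was not well above background, so 1 of 2 wild-type injured arrays measured it. Wild-type injured array 2 stood apart from the other 5 arrays, and both slide 1 arrays were higher than all slide 2 arrays. The injury change over both genotypes was 0.25 (SE 0.83, 95% interval -1.87 to 2.36, limma adjusted p 0.943). It was -0.62 without wild-type injured array 2, -0.25 without wild-type sham array 2 and 0.93 without wild-type injured array 1, so either of 2 arrays turned its direction.

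Edn3, whose product binds the Ednrb receptor most strongly and is known for its part in the development of neural crest cells, was also dim. Its signal was -4.81 on the Gpr97-deficient injured array and -4.27 and -4.29 on the wild-type injured arrays, against -5.13 on the Gpr97-deficient sham array and -3.59 and -4.91 on the wild-type sham arrays. It was not well above background on wild-type injured array 2. The groups overlapped, and the highest value was that of wild-type sham array 1. The injury change was 0.09 (SE 0.38, 95% interval -0.88 to 1.05, limma adjusted p 0.960), and it was -0.26 without wild-type sham array 2. In the Gpr97-deficient kidneys over both surgeries Edn3 was at -0.70 relative to wild type (SE 0.40, limma adjusted p 0.994). That value draws on wild-type arrays of both slides. It was -0.38 (SE 0.38) with slide as a block, -0.39 without wild-type sham array 1 and 0.033 with the mean of both probes. The second Edn3 probe was well above background on a single array and is not read further.

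**Figure D2:**
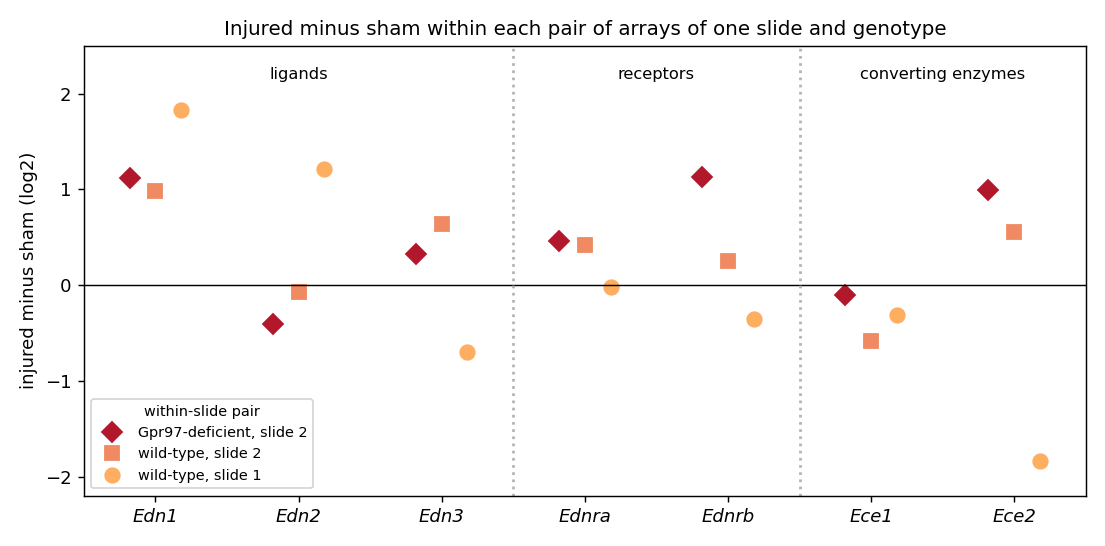
Injured minus sham log2 signal of each member within each pair of arrays of the same slide and genotype, ordered by role. Diamonds are the Gpr97-deficient pair, squares the wild-type pair of slide 2 and circles the wild-type pair of slide 1; Edn1 lies above 0 in all 3 pairs (0.99 to 1.83) and Ece1 below 0 in all 3 (-0.58 to -0.11).

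Of the receptors, Ednrb stood out on a single array, that of the injured Gpr97-deficient kidney. Its signal was 1.51 on the Gpr97-deficient injured array and 0.57 and 0.24 on the wild-type injured arrays, against 0.38 on the Gpr97-deficient sham array and 0.59 and 0.32 on the wild-type sham arrays. The other 5 arrays lay within 0.24 to 0.59, and the wild-type injured and wild-type sham ranges overlapped. The dimmer Ednrb probe was also highest on that array, with 0.43 on the Gpr97-deficient injured array and -0.80 and -0.67 on the wild-type injured arrays, against -0.58 on the Gpr97-deficient sham array and -0.48 and -0.93 on the wild-type sham arrays. Both probes read the same labelled RNA, so they check the probe and not the animal.

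In the injured kidneys, Ednrb stood at 1.51 on the Gpr97-deficient array (n = 1) and averaged 0.40 ± 0.23 in wild type (SD, n = 2). The log2 difference was 1.11, or 2.16-fold (SE 0.33, 95% interval 0.20 to 2.02), with an unadjusted p of 0.0275 and a limma adjusted p of 1.0. The dimmer probe gave 1.16 (SE 0.34, unadjusted p 0.0253) in a fit of all probes. Within slide 2 the difference was 0.95, set against wild-type injured array 1, the array with the sex mismatch. Without that array it was 1.27, which sets an array of slide 2 against one of slide 1 and so mixes genotype with slide. After sham surgery the Gpr97-deficient array differed from the wild-type array of its slide by 0.06, and by 0.36 on the dimmer probe. The difference after injury was positive under all 9 other settings of scaling, filtering, blocking and variance prior that were tried for it, and passed the adjusted threshold under none.

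The injury change of Ednrb was 1.14 in Gpr97-deficient mice (SE 0.38, 95% interval 0.08 to 2.19, unadjusted p 0.0398, limma adjusted p 1.0). In wild-type mice it was -0.05 (SE 0.27, 95% interval -0.79 to 0.69, limma adjusted p 0.993), with 0.25 on slide 2 and -0.35 on slide 1. These changes differed between genotypes by 1.19 (SE 0.47, 95% interval -0.10 to 2.47, unadjusted p 0.0629, limma adjusted p 1.0). Over both genotypes the injury change was 0.34 (SE 0.31, limma adjusted p 0.70), and it was -0.05 without either Gpr97-deficient array, when the fit rests on wild-type mice. Whether another Gpr97-deficient injured kidney would show the same level cannot be told from 1 array.

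Endothelium carries Ednrb, so its markers were set beside this result. All 14 endothelial markers were well above background on all 6 arrays. All 14 were higher on the Gpr97-deficient injured array than the wild-type injured mean, by 0.12 to 0.66 with a median of 0.53. Pecam1, an adhesion molecule of endothelium, was the marker with the largest difference. Without wild-type injured array 1, against array 2 of slide 1 alone, Kdr was lower (1.90 against 2.01) and the other markers were higher. As a mean over the 14 genes relative to the wild-type sham mean, the level was 0.41 on the Gpr97-deficient injured array and -0.15 and -0.02 on the wild-type injured arrays, against 0.18 on the Gpr97-deficient sham array and 0.04 and -0.04 on the wild-type sham arrays. Of the same 14 markers, 13 were also higher in the Gpr97-deficient than in the wild-type kidney of slide 2 after sham surgery. Between those sham arrays Ednrb differed by 0.06 on its brighter probe and by 0.36 on its dimmer probe.

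Macrophage markers were higher on the Gpr97-deficient injured array than the wild-type injured mean for 10 of 10 genes (median 0.51, range 0.05 to 0.83). Smooth muscle, pericyte and mesangial markers were higher for 9 of 12 (median 0.41, range -0.44 to 0.87). The median of all genes in this comparison was -0.02. Within slide 2 the macrophage count was 9 of 10 after injury and 6 of 10 after sham surgery. The smooth muscle, pericyte and mesangial count was 9 of 12 each time. Red blood cell markers moved more than any of these, with a median of 2.48 relative to the wild-type sham mean on the Gpr97-deficient injured array and 3.63 and -0.97 on the wild-type injured arrays, and 4.65 on the Gpr97-deficient sham array. The median of the collecting duct markers, cells that also carry Ednrb, stood at 0.04 on the Gpr97-deficient injured array and at 0.28 and -0.71 on the wild-type injured arrays, against 0.34 on the Gpr97-deficient sham array. The part of these cell types in the Ednrb result was not tested. In RNA of whole kidney, more cells of a type and more RNA per cell cannot be told apart.

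**Figure D3:**
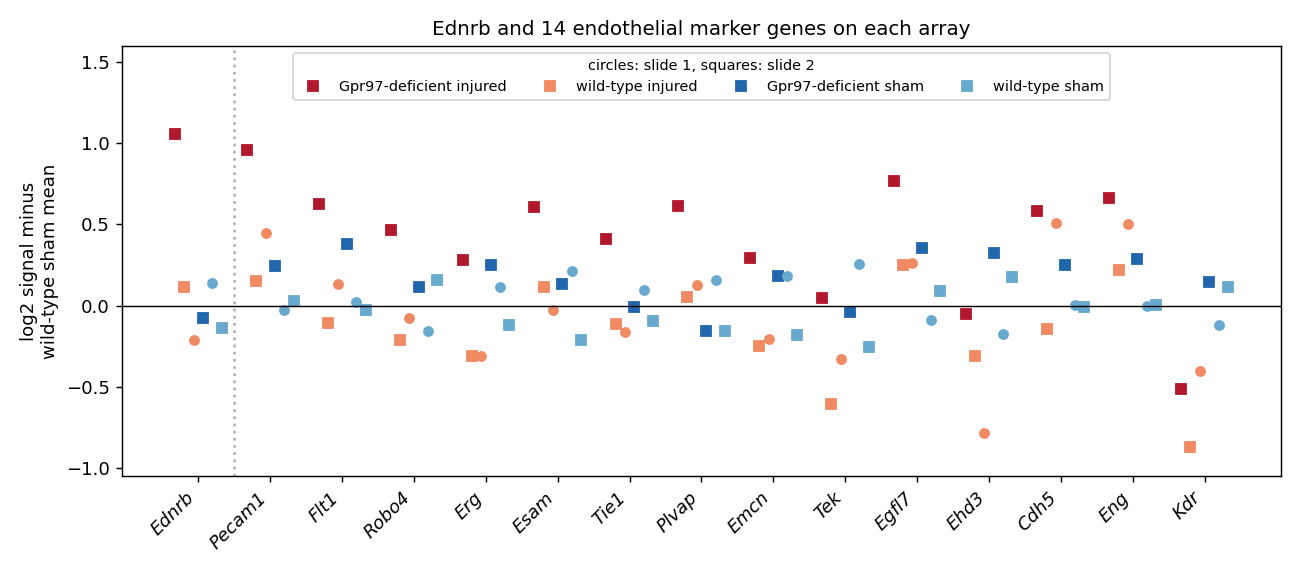
Log2 signal of Ednrb and of 14 endothelial marker genes on each array, minus the mean of the 2 wild-type sham arrays, with injured groups left of sham groups in each column. On the Gpr97-deficient injured array (dark red) Ednrb stood at 1.06 and the markers between -0.51 (Kdr) and 0.96 (Pecam1), and all 14 markers were above the mean of the 2 wild-type injured arrays (light red).

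Ednra, the contractile receptor gene, varied little. It stood at -0.97 on the Gpr97-deficient injured array and at -1.25 and -1.49 on the wild-type injured arrays, against -1.43 on the Gpr97-deficient sham array and -1.47 and -1.67 on the wild-type sham arrays. The injured and sham arrays overlapped by a narrow margin, through wild-type injured array 2. The injury change over both genotypes was 0.29 (SE 0.17, 95% interval -0.15 to 0.72, limma adjusted p 0.558). Within slides it was 0.46 in the Gpr97-deficient pair, 0.42 in the wild-type pair of slide 2 and -0.02 in that of slide 1. In injured kidneys the Gpr97-deficient array differed from wild type by 0.40 (SE 0.31, limma adjusted p 1.0), but by -0.22 with normexp correction and by -0.13 with the mean of all Ednra probes. A second Ednra probe was well above background on all 6 arrays and gave pair differences of 0.35, 0.13 and -0.29 in the same order. The other 2 Ednra probes were not well above background on any array.

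**Figure D4:**
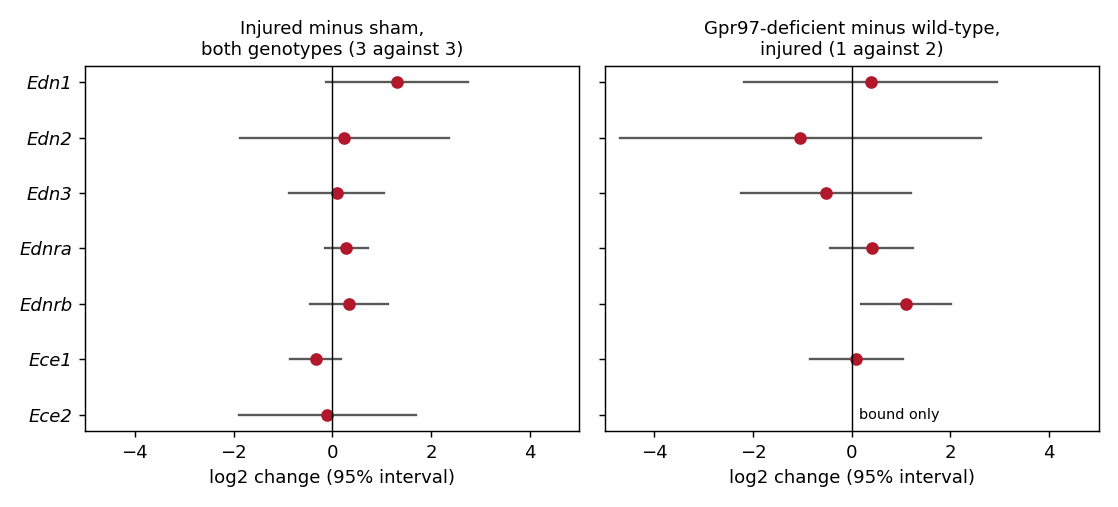
Log2 change of the 7 members with its 95% interval from limma for injury over both genotypes and for Gpr97 deficiency in injured kidneys, with positive values higher in injured or in Gpr97-deficient kidneys. The interval of Ednrb in the right panel (0.20 to 2.02) leaves out 0 before adjustment over 19611 genes, that of Edn1 in the left panel reaches -0.12, and Ece2 is left out on the right, where it was not well above background on either wild-type injured array.

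Ece1, the main endothelin converting enzyme gene, was lower on all 3 injured arrays than on all 3 sham arrays. Its signal was 2.76 on the Gpr97-deficient injured array and 2.76 and 2.58 on the wild-type injured arrays, against 2.87 on the Gpr97-deficient sham array and 2.90 and 3.34 on the wild-type sham arrays. Groups that did not overlap in this direction were found for 1 of 7 members and 12.4% of all genes, and in the other direction for 0 members and 10.1% of all genes. Within slides Ece1 differed by -0.11 in the Gpr97-deficient pair, -0.58 in the wild-type pair of slide 2 and -0.31 in that of slide 1. A lower signal in all 3 pairs was seen for 1 of 7 members and 25.3% of all genes, and at least 2-fold lower for 0 members and 0.76% of all genes.

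Over both genotypes Ece1 averaged 2.70 ± 0.10 in injured kidneys and 3.04 ± 0.26 in sham kidneys (SD, n = 3 each). The change was -0.33 (SE 0.20, 95% interval -0.85 to 0.18, limma adjusted p 0.558). It kept its sign under the alternatives tried, and without wild-type sham array 2, the highest of the 6, it was -0.17. Without wild-type injured array 1, the array with a sex mismatch, the injury change was -0.35 for Ece1, 0.24 for Ednra, 0.36 for Ednrb and 0.12 for Edn3. The second Ece1 probe, which was not well above background on wild-type injured array 2, gave pair differences of -0.34, -0.37 and -0.33. By genotype, Ece1 in injured kidneys differed by 0.09 (SE 0.34), and by -0.065 with slide as a block. The second probe gave -0.46 (SE 0.29) in a fit of all probes, so the probes did not give the same difference after injury. Within slide 2 the genotype difference after injury was 0.0022 on the main probe and -0.50 on the second. After sham surgery it was -0.47 and -0.54 in the same order.

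Ece2, a related converting enzyme gene best known from neural tissue, was at the edge of detection. Its signal was -4.52 on the Gpr97-deficient injured array and -5.05 and -5.11 on the wild-type injured arrays, against -5.51 on the Gpr97-deficient sham array and -3.28 and -5.60 on the wild-type sham arrays. It was well above background on the Gpr97-deficient injured array and on wild-type sham array 1 alone. In groups that were not above background it has only a bound for detection, which does not cover the spread between arrays. That bound was 1.99-fold higher in the injured than in the sham Gpr97-deficient kidney, equal to the measured ratio of 1 array to 1. In wild type it was 1.22-fold lower in injured than in sham kidneys (limma adjusted p 0.934). The 95% interval of the wild-type log2 change, -2.94 to 1.66, leaves its direction open. The wild-type bound averages both wild-type sham arrays, of which only array 1 was well above background. With normexp correction the wild-type change was 0.86. A further Ece2 probe was not well above background on any array.

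The neighbouring probe that the files label Ece2 and RefSeq assigns to Eef1akmt4 behaved differently. It stood at 2.01 on the Gpr97-deficient injured array and 2.08 and 2.62 on the wild-type injured arrays, against 1.96 on the Gpr97-deficient sham array and 1.69 and 1.73 on the wild-type sham arrays. It was higher on all 3 injured arrays, by 0.44 over both genotypes (SE 0.23, limma adjusted p 0.510). Read under its file label, this probe would give Ece2 a positive injury change where the Ece2 probe gave -0.10 (SE 0.70), or 0.63 with normexp correction.

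Set against each other by role, the ligands and receptors did not follow one pattern across the pairs. The mean log2 change of the 3 ligands was 0.35 in the Gpr97-deficient pair, 0.52 in the wild-type pair of slide 2 and 0.78 in that of slide 1, with 2 of 3 ligands higher in each. The mean of the 2 receptors was 0.80 in the Gpr97-deficient pair, 0.33 in the wild-type pair of slide 2 and -0.19 in that of slide 1, where it was 0.12 with normexp. The ligand mean was above that of the receptors in both wild-type pairs and below it in the Gpr97-deficient pair; with normexp it was 0.29 against 0.30 in the wild-type pair of slide 2. The ligand means rested on Edn1 in the Gpr97-deficient pair and on Edn1 and Edn2 in the pair of slide 1. With 3 and 2 genes, these means are a description without a test.

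Of 9 genes that process or clear endothelin 2 had a higher and 7 a lower signal after injury over both genotypes, and 0 passed the adjusted threshold. Their median change was -0.28 against -0.04 for all genes, and in wild type it was -0.10 against -0.03. In all 3 pairs 4 of the 9 were lower, against 25.3% of all genes, and 2 were lower without overlap of the groups, against 12.4%. At an unadjusted p under 0.05 there were 3 of the 9, against 12.3% of all genes. Kel, a red cell endopeptidase that can activate big endothelin 3, differed by 1.15 (SE 0.43, limma adjusted p 0.398) and was well above background on 2 of 6 arrays. Mmel1, a relative of neprilysin, differed by -0.80 (SE 0.80, adjusted p 0.738), also on 2 of 6 arrays. Chosen after their values were seen, the 2 genes lower at an unadjusted p under 0.05 were Mme, the neprilysin gene whose product breaks down endothelin 1 (-0.64, SE 0.24, adjusted p 0.401), and the proprotein convertase gene Pcsk5 (-0.50, SE 0.16, adjusted p 0.351). Mme stood at -0.04 on the Gpr97-deficient injured array and 0.41 and -0.33 on the wild-type injured arrays, against 0.75 on the Gpr97-deficient sham array and 0.54 and 0.68 on the wild-type sham arrays, so that the groups did not overlap.

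Genes that carry the signal of the receptors were spread around 0. Of 30 tested, 16 were higher and 14 lower after injury over both genotypes, with a median of 0.05, and 0 passed the adjusted threshold. Ptgs2, the inducible cyclooxygenase gene, differed by 1.39 (SE 0.97, limma adjusted p 0.610). Itpr3, which encodes a calcium channel opened by inositol trisphosphate downstream of both receptors, differed by 0.95 (SE 0.19, adjusted p 0.262), with 0.79 in the Gpr97-deficient pair and 0.85 and 1.22 in the wild-type pairs of slides 2 and 1. At an unadjusted p under 0.05 there were 3 of the 30, against 12.3% of all genes, a share no higher than the background. These 3, all higher, were Itpr3 and, named after their values were seen, Nos3 and Gnai2. Nos3, the endothelial nitric oxide synthase gene that acts downstream of Ednrb, was at -0.02 on the Gpr97-deficient injured array and -1.09 and -0.55 on the wild-type injured arrays, against -1.07 on the Gpr97-deficient sham array and -1.46 and -1.45 on the wild-type sham arrays. Its injury change was 0.78 (SE 0.22, limma adjusted p 0.329). It was highest on the Gpr97-deficient injured array, as were Ednrb and endothelial markers such as Pecam1 and Flt1, though not Kdr. A link between Nos3 and Ednrb was not tested.

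Of 13 genes known to regulate Edn1 transcription, 10 were higher and 3 lower after injury, with a median of 0.28 against -0.04 for all genes, and 0 passed the adjusted threshold. The list was not split into genes that raise and genes that lower Edn1, so this count gives no direction of control. Fos and Jun encode the partners of the AP-1 factor. Fos was at -2.11 on the Gpr97-deficient injured array and -2.56 and -0.30 on the wild-type injured arrays, against -4.04 on the Gpr97-deficient sham array and -2.12 and -5.11 on the wild-type sham arrays, a change of 2.10 (SE 0.98, limma adjusted p 0.468). Jun differed by 1.22 (SE 0.40, adjusted p 0.367), with 1.43 in the Gpr97-deficient pair and 0.51 and 1.71 in the wild-type pairs of slides 2 and 1. At an unadjusted p under 0.05 there were 2 of the 13, near the 12.3% of all genes. These 2, both higher, were Jun and, named after its values were seen, Tgfb1, the gene of a growth factor that induces Edn1 (1.08, SE 0.25, adjusted p 0.290). For Gata2, an endothelial activator of Edn1, the change was -0.19 (SE 0.18, adjusted p 0.729), and for Hif1a, the hypoxia factor, 0.24 (SE 0.26, adjusted p 0.763), both also named after their values were seen.

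Edn1 is known to be driven through GATA and AP-1 elements next to its start, so the start region of each member was read from RefSeq sequence (GRCm38.p6, 250 bases before to 50 bases after the start). The stretch of Edn1 at chr13:42301484-42301513 on the plus strand, bases 9 to 38 after the annotated start, is shown because it holds such letters.
Edn1 start: TTATCTctggctgCACGTtgcctgtgggtg
The first capitals are the GATA box AGATAA and the second the hypoxia response core ACGTG, both on the minus strand. A variant AP-1 site, TGACTAA, starts at base 37 on the plus strand, at the end of this stretch. Searched on both strands, AGATAA occurred in 11.18% of 32851 windows of this length, TGACTAA in 2.347%, the AP-1 site TGANTCA in 7.808% and ACGTG in 19.62%. Among the members AGATAA and TGACTAA occurred in Edn1 alone, TGANTCA in none, and ACGTG also in 1 of 4 windows of Ece1 and in Ece2. The letters are a description of the sequence, with positions counted from the annotated start. Neither binding nor the place where transcription starts in these kidneys was measured.

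The genes whose signals followed those of each member most closely over the 6 arrays were listed by Pearson's r among 12843 genes above background on all arrays. For Edn1 they were Litaf (0.994), Ephx3 (0.992) and Synm (0.991), and 2.96% of genes had an r above 0.9. For Ednrb they were Zfp521 (0.985), Hyal1 (0.981) and Baz2b (0.979), with 0.241% above 0.9. For Ednra they were Rgma (0.982), Sbsn (0.981) and Shroom3 (0.977), with 0.553% above 0.9, and for Ece1 Ttc39c (0.998), Marchf6 (0.992) and Zfp318 (0.991), with 2.16% above 0.9. These correlations share arrays, slides and scaling and are taken from 6 points. Ednrb varied mainly through the Gpr97-deficient injured array, on which Zfp521 also stood apart, at -1.73 against -2.64 or lower elsewhere.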

How the data were processed

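RNA of 6 mouse kidney samples was labelled with Cy3 and read on Agilent arrays, per the labels. The deposited scanner files give intensity per spot, made with Feature Extraction 10.7.1.1 (slide 1) and 10.7.3.1 (slide 2), per the file headers. The deposited series values were read as log2 values (medians 6.07 to 6.09, Spearman's rho with the scanner signals at least 0.999 on each array). Their exact normalization was not given in the sources used here and stays unknown. The scanner files also hold a background intensity, used for the normexp alternative, and flags for signal well above background, saturation and outliers.

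Control spots were left out (43379 of 45018 spots used), and outlier spots, 80 to 120 per array, were set to missing on that array. Repeated spots of a probe were averaged, and log2 signals were set relative to the 75th percentile of each array. Names came from RefSeq accessions for 27668 of 41174 probes, from symbols or synonyms for 6060, and from the file for 7446. A gene took its brightest probe and was tested if the files flagged it as well above background on 2 or more of the 6 arrays (19611 genes, 7 with a missing value). Where a whole group was not above background, the fold is a bound for detection and not for the spread between arrays. It is the mean of the brighter group over a floor for the dimmer one. The floor is averaged from each array's lowest signal well above background or the probe's own signal, whichever is higher.

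Limma 3.58.1 in R 4.3.3 fitted all 6 arrays, two-sided, with p-values adjusted by Benjamini-Hochberg over all genes. Each Gpr97-deficient group has 1 array. In the fits of group means its spread was taken from wild type. In the additive fits, over both genotypes or both surgeries, the Gpr97-deficient arrays also entered the spread. The fits were tested on simulated data. Alternatives were other background corrections, scalings, filters and priors, the deposited values, the mean of all probes, slide as a block, and leaving out each array. No 2 arrays were identical (r across genes 0.938 to 0.980). The members, the 12 gene lists (143 of 146 entries tested) and the tests were chosen with earlier results of these data known. The rule for named genes took all members, the genes that check genotype, injury and sex, per pathway list the 2 largest changes of 1 sign in all 3 pairs where none passed, and the 3 genes most like each member.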

Additional observations from a re-analysis of the deposited data

How the results depend on the processing

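No result for a member passed the adjusted threshold under any alternative, and over all members, comparisons and alternatives 64 of 549 values changed sign. The injury change of Edn1 (0.76 to 1.81 with 1 array left out) and of Ece1 (-0.45 to -0.17), and the Ednrb difference between genotypes after injury (0.95 to 1.27), kept their sign under all alternatives tried for them. For injury over both genotypes the count of genes called, 0 in the settings reported, was 1 with quantile normalization, 1 with the deposited values, 1 with slide as a block and 3 with a prior that is robust and follows signal, and 0 with any array left out. That prior also called 1 gene for Gpr97 deficiency over both surgeries and 1 in injured kidneys.

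With 1 array left out, the injury change over both genotypes ran between -0.62 and 0.93 for Edn2, between -0.26 and 0.50 for Edn3, between -0.051 and 0.55 for Ednrb and between -0.64 and 0.72 for Ece2. In wild type it ran between -0.21 and 0.11 for Ednrb and between -1.80 and 0.52 for Ece2. The genotype difference after injury ran between -0.53 and 1.31 for Edn1 and between -2.39 and 0.32 for Edn2, and the difference of the injury changes between -1.22 and 0.63 for Edn1.

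Normexp background correction, which moved the median injury change of all genes to 0.198, against -0.04 otherwise, turned Ece2 to 0.63 over both genotypes and 0.86 in wild type, and the genotype differences after injury to -0.091 for Edn1 and -0.22 for Ednra. The mean of all probes gave 0.021 for Ece2 after injury, 0.033 for Edn3 by genotype over both surgeries, and 0.17 for Edn3, -0.13 for Ednra and -0.18 for Ece1 by genotype after injury. Slide as a block gave -0.065 for Ece1 by genotype after injury. Within the wild-type pair of slide 2 the injury change had the other sign for Ece2 (0.55), Edn2 (-0.069) and, in wild type, Ednrb (0.25), within the Gpr97-deficient pair for Ece2 (0.99) and Edn2 (-0.40), and within the pair of slide 1 for Edn3 (-0.70), Ednra (-0.021) and Ednrb (-0.35). The cause of these changes was not tested. No paired analysis was possible because the labels give no replicate numbers to pair by; arrays were paired by slide instead, and slide was fitted as a block. Signal over background limits Edn2, Edn3 and Ece2, and 1 array per Gpr97-deficient group limits every comparison of genotypes.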

Other observations

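The other cell type lists give the setting in which the endothelin genes were read, as changes after injury over both genotypes with 0 genes past the adjusted threshold in limma. Fibroblast markers had a median of 0.87 with 6 of 8 higher, led by the collagen genes Col3a1 (2.20, SE 0.15, limma adjusted p 0.145) and Col1a1 (2.0, SE 0.36, adjusted p 0.262). Smooth muscle, pericyte and mesangial markers, cells that carry Ednra, had a median of 0.25 with 7 of 12 higher. Pdgfrb, a growth factor receptor gene of pericytes, differed by 1.26 (SE 0.34, adjusted p 0.326). Named after its values were seen, Itga8 differed by -0.69 (SE 0.16, adjusted p 0.286). In all 3 pairs 6 of these 12 were higher and 3 lower, against 19.6% and 25.3% of all genes. Endothelial markers had a median of 0.07 with 9 of 14 higher, and Kdr, the main receptor gene for vascular endothelial growth factor, differed by -0.65 (SE 0.19, adjusted p 0.340). Of the collecting duct markers 10 of 12 were lower (median -0.23), and of the kidney defining markers 8 of 10 (median -0.49). Macrophage markers had a median of 0.17 with 7 of 10 higher, and Cd68 differed by 2.51 (SE 0.36, adjusted p 0.257). In all 3 pairs 3 of these 10 were higher and 2 lower, against 19.6% and 25.3% of all genes. The 2 lower ones, named after their values were seen, were Csf1r (-0.82, SE 0.30, adjusted p 0.393) and Adgre1 (-0.34, SE 0.46, adjusted p 0.821). Of the neutrophil markers 7 of 10 were higher (median 1.5), but the genotypes went in opposite directions. In wild type 8 of 10 were higher (median 2.27), and in the Gpr97-deficient pair 8 of 10 were lower (median -0.86). Neutrophil markers stood highest on the Gpr97-deficient sham array (median 3.72 relative to the wild-type sham mean), and 3 of the 10 were well above background on all 6 arrays. Of the 5 red blood cell markers tested 3 were higher (median 0.11).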
